A study of Homo sapiens with 24 samples.

Results

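The 10 genes of the major histocompatibility complex (MHC) class II presentation machinery followed here were the peptide-binding chains HLA-DRA, HLA-DRB1, HLA-DPA1, HLA-DPB1 and HLA-DQA1, the peptide-loading chains HLA-DMA, HLA-DMB and HLA-DOA, the invariant chain CD74 and the transactivator CIITA. They were chosen by name, with earlier results of these data known, and 10 of 10 had a row among the 25559 genes counted. The data were RNA-seq read counts of 24 libraries from 3 human T-cell lines. HH was derived from a cutaneous T-cell lymphoma. PF382 came from a T-lineage acute lymphoblastic leukemia, and TLOm1 from an adult T-cell leukemia. Cells were untreated or were kept for 96 h in azacitidine (AZA) or in decitabine, each added again every 24 h. Both drugs are cytidine analogs that inhibit DNA methyltransferases. AZA was given at 50, 125 and 250 nM to HH and at 125, 250 and 500 nM to PF382 and TLOm1. Decitabine was given at 5, 12.5 and 25 nM to all lines. Each condition was 1 library, and each line had an untreated library of its own in the AZA set and another in the decitabine set, sets being named here from the sample titles. Nothing in the labels says that libraries of a line came from separate cultures, so p-values measure the spread between these libraries only.

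MHC class II molecules are pairs of an alpha and a beta chain that show peptides from endosomes to CD4+ T cells. CD74 fills the groove of the new pair and guides it to endosomes, HLA-DM (HLA-DMA with HLA-DMB) trades the remnant of CD74 for a peptide, and HLA-DO (HLA-DOA with HLA-DOB) holds HLA-DM back. CIITA does not bind DNA itself but is held by the RFX, CREB and NF-Y factors at the X and Y boxes of class II promoters, and human T cells make class II molecules when activated.

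The promoters of 5 genes are shown, 4 in which letters of those boxes were found and 1 without an X match, because CIITA acts through these boxes. RefSeq windows of GRCh38.p14, which is not the build of the counts, were found for 8 members, with a pair of starts for HLA-DPA1. HLA-DRA and CIITA were not among them. A search for the letters CNAGNNAC (a core of the X box, with N any base) followed on the gene's strand, 20 to 45 bases further on, by ATTGG or CCAAT (the NF-Y box in either direction) found 5 of the 9 windows in the 250 bases before the start. They belonged to CD74, HLA-DRB1, HLA-DQA1, HLA-DMA and HLA-DOA, and the same search held for 0.837% of 35116 windows of all genes. The letters were chosen after reading these promoters, so the count is a description. Each line gives the 150 bases before the annotated start, 5′ to 3′, with the matched letters in capitals.
CD74, chr5:150412911-150413060, minus strand: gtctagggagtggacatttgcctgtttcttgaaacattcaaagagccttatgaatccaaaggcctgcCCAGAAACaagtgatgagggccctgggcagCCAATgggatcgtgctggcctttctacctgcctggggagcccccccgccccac
HLA-DRB1, chr6:32589849-32589998, minus strand: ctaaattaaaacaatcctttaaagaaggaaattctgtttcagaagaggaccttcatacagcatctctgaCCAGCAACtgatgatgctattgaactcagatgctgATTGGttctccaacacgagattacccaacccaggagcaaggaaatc
HLA-DMA, chr6:32953098-32953247, minus strand: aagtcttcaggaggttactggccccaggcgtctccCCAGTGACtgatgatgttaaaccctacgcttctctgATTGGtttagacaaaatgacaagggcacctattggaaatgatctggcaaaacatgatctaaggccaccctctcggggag
HLA-DOA, chr6:33009592-33009741, minus strand: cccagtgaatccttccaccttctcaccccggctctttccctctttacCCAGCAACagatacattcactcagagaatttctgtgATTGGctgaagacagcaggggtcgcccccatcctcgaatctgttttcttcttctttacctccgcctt
HLA-DPB1, chr6:33075840-33075989, plus strand: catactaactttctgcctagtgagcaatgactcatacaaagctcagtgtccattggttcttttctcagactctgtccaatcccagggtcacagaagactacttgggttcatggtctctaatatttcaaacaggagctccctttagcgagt
In HLA-DPB1, shown for contrast, CNAGNNAC was absent from the 250 bases on either strand, while 33.2% of all windows held it on one strand or the other. CCAAT or ATTGG did stand in the HLA-DPB1 window, as in 32.01% of all windows. A window without these chosen letters may still hold an X box of other letters, which was not tested. The matched windows held between 1 (HLA-DRB1 and HLA-DQA1) and 5 (HLA-DOA) CG pairs in 250 bases, where the median over all windows was 11. The first start of HLA-DPA1 held 24 and its other start 3.

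Library totals ran from 13892514 to 32496676 reads, so that 3 reads, taken as the floor, stood for 0.0923 to 0.216 CPM, the usual read count scaled to the library total. CD2, CD3E and CD4 were above 1 CPM in the libraries of the 3 lines, with CD4 lowest in PF382 (8.89 to 31.7 CPM). CD3D had a median of 33.0 CPM in HH and 341 CPM in PF382 but 0.0399 CPM in TLOm1, and LCK was at most 1.34 CPM in each library of HH and TLOm1. Of 8 B-cell markers, BLK was at 348 to 449.6 CPM and MS4A1 at 1.05 to 3.07 CPM in HH, and CD79A, CD79B, PAX5, CD22 and FCRLA were each at most 0.886 CPM there. In TLOm1 BLK was at 1.22 to 8.32 CPM, and in PF382 CD79A was at 10.5 to 22.5 CPM. The part of BLK-expressing or other cells in the class II levels was not tested. The 11 monocyte and dendritic cell markers summed to at most 4.57 CPM in any HH library and 3.49 CPM in any TLOm1 library. In PF382 that sum was 38.4 to 117 CPM, with CD1C as the single gene of mean above 1 CPM. The 10 epithelial and fibroblast markers summed to 0.834 to 3.89 CPM in HH, 10.2 to 74.9 CPM in PF382 and 136 to 255 CPM in TLOm1.

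Before treatment the 10 genes were near 0 in PF382 and far above that in HH and TLOm1. TLOm1 was above HH in both sets for 9 of them, while HLA-DPA1 was at 437 and 614 CPM in HH and at 559 and 579.97 CPM in TLOm1. CD74, the most abundant, stood at 3285 CPM in the untreated HH library of the AZA set and 4377 CPM in that of the decitabine set, and at 7636 and 8540 CPM in those of TLOm1. HLA-DRA, the invariable alpha chain of HLA-DR, was at 535 and 861 CPM in HH and at 1703 and 1918 CPM in TLOm1. CIITA was at 369 and 434 CPM in HH and at 709.7 and 829.7 CPM in TLOm1. In PF382 the same libraries gave 2.84 and 0.195 CPM for CD74, 0.567 and 0 CPM for HLA-DRA, and 0.0873 and 0 CPM for CIITA. For each member the 8 PF382 libraries lay below the 16 libraries of the other lines, as the plot of the 24 libraries shows. How many of all genes separate the lines in these ways was not counted. Differences between the lines were common, with 82.9% of the genes tested called between the untreated lines. In such bulk RNA, fewer cells that make a transcript and less RNA per cell cannot be told apart.

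**Figure D1:**
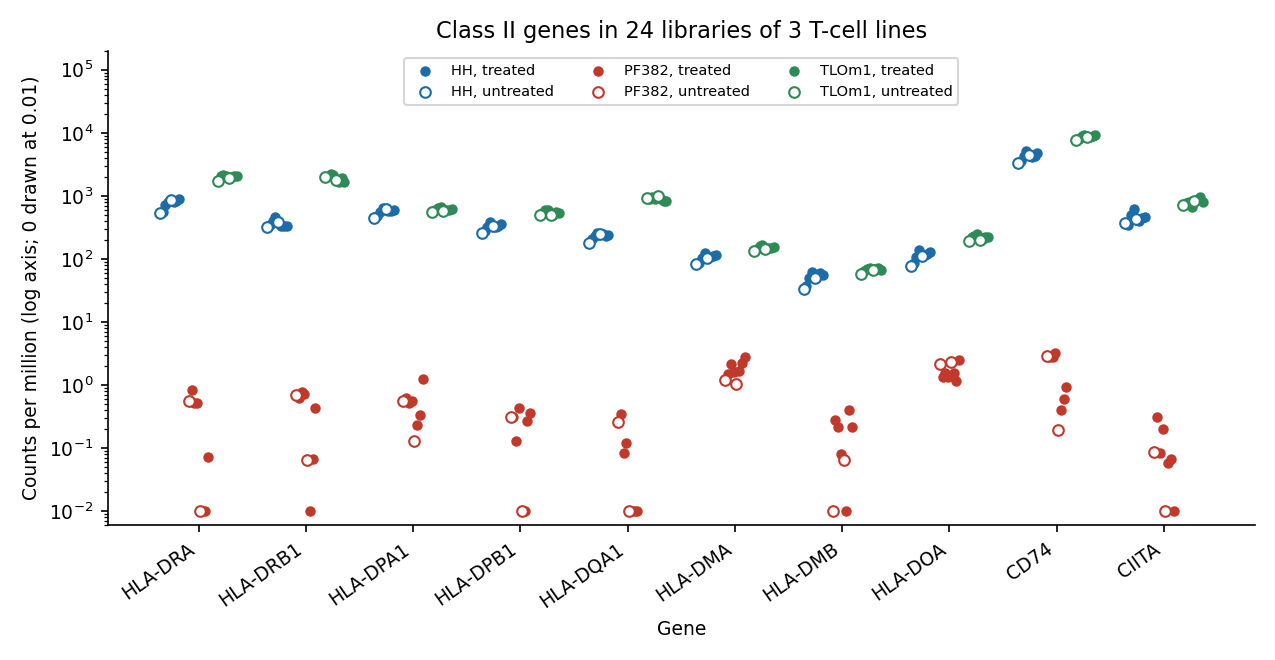
CPM (log axis, 0 drawn at 0.01) of the 10 class II genes in 24 libraries, 1 point per library, open circles untreated and filled circles treated, colored by line. TLOm1 was above HH for CD74 in each library (7636 to 9281 against 3285 to 5236 CPM), and the PF382 points lay at 3.27 CPM or below for the 10 genes.

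A test for any difference between the 3 lines in the 6 untreated libraries called 10 of 10 members, where 82.9% of the 15501 genes tested were called. Called here means a Benjamini-Hochberg adjusted p under 0.05 by edgeR's quasi-likelihood test over all genes tested. Between the lines that had class II RNA, TLOm1 was higher than HH for 8 of 10 members, against 28.1% of all genes called higher in TLOm1. The difference was widest for HLA-DRB1 (log2 difference 2.39, SE 0.22) and HLA-DQA1 (2.15, SE 0.18). It was 1.38 (SE 0.31) for HLA-DRA, 1.06 (SE 0.13) for HLA-DOA and 0.91 (SE 0.12) for CIITA, and between 0.55 and 0.74 for HLA-DPB1, HLA-DMA and HLA-DMB. HLA-DPA1 (0.10, SE 0.18, adjusted p = 0.66) and CD74 (1.05, SE 0.54, adjusted p = 0.203) were not called. The same test by DESeq2 called 3 members, and leaving out the AZA-set untreated library of HH or of TLOm1 left 4 and 5 calls.

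Per length, the order of the levels was led by the invariant chain. The mean untreated level of CD74 was 3616 ± 728 CPM per kilobase (SD, n = 2 libraries, 1 of each set) in HH and 7634 ± 604 in TLOm1. In HH there followed HLA-DRA (569.9 ± 188), HLA-DPA1 (309 ± 73.5), HLA-DRB1 (287 ± 34.8), HLA-DPB1 (189 ± 37.6), HLA-DQA1 (176 ± 37.7), CIITA (107 ± 12.2), HLA-DMA (93.0 ± 15.8), HLA-DMB (29.7 ± 8.73) and HLA-DOA (26.7 ± 6.84). HLA-DPA1 and HLA-DRB1, HLA-DPB1 and HLA-DQA1, CIITA and HLA-DMA, and HLA-DMB and HLA-DOA differed by less than the larger SD of the pair. In TLOm1 CD74 was followed by HLA-DRB1 (1533 ± 83.7) and HLA-DRA (1479 ± 124), within an SD of each other, then HLA-DQA1 (787 ± 32.1), HLA-DPA1 (334 ± 8.56), HLA-DPB1 (319 ± 0.364), CIITA (205 ± 22.6), HLA-DMA (138 ± 8.63), HLA-DOA (55.8 ± 2.24) and HLA-DMB (44.9 ± 4.37). Lengths were medians over the basic transcripts of GENCODE release 29, which for CIITA run from 2344 to 16059 bases, so its place is the least certain.

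The chains of the DQ and DP pairs stood in different proportions in untreated HH and TLOm1, while those of HLA-DM did not. Untreated HLA-DQB1 was 1.70 and 1.41 times HLA-DQA1 in HH, by CPM in the AZA and decitabine sets, but 0.343 and 0.334 times HLA-DQA1 in TLOm1. HLA-DPB1 was 0.580 and 0.548 times HLA-DPA1 in HH and 0.890 and 0.857 times in TLOm1. HLA-DMB was 0.399 and 0.478 times HLA-DMA in HH and 0.440 and 0.462 times in TLOm1. CIITA kept a like proportion to CD74 in both, from 0.0938 to 0.116 over the 8 HH libraries and from 0.0706 to 0.112 over the 8 TLOm1 libraries. These proportions are per line as counted on 1 reference sequence, and reads from class II alleles that differ from it may be lost unequally, which was not tested.

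The untreated libraries of the sets differed from each other. In HH 10 of 10 members were higher in the decitabine-set untreated library, by 1.17 to 1.61 times (median 1.35), while in TLOm1 the ratio ran from 0.926 to 1.17 with 8 of 10 above 1. The like shares over all genes were not counted. In PF382, on few reads, CD74 went the other way, with 0.195 CPM in the decitabine-set library against 2.84 CPM. Over the 3 lines the test of the AZA set against the decitabine set by edgeR called 0 of 10 members (1 with an unadjusted p under 0.05; DESeq2 and limma voom 0), where 10.6% of all genes were called. With PF382 left out it called CD74, as lower in the AZA set. The AZA levels in HH are therefore set beside both of its untreated libraries.

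Over the untreated HH library of the AZA set and the 3 AZA doses, class II RNA rose in step with the dose for 9 of 10 members. The test of AZA-treated against untreated in HH, given below, called 0 of 10 members and 0% of all genes. HLA-DRA was at 535 CPM untreated and at 564, 716 and 810 CPM at 50, 125 and 250 nM. The beta chain HLA-DRB1 went from 322 CPM to 345, 393 and 455 CPM. HLA-DPA1 was at 437 CPM and then 478, 546 and 645 CPM, and HLA-DPB1 at 253 CPM and then 273, 322 and 385 CPM. HLA-DQA1 stood at 179.7 CPM untreated and at 204, 234 and 262 CPM. All 5 peptide-binding chains thus had their lowest library untreated and their highest at 250 nM.

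HLA-DMB and HLA-DOA, of the loading machinery, had the widest steps of the 10 members, at 1.86 and 1.85 times untreated at 250 nM. HLA-DMB was at 32.9 CPM untreated and at 37.3, 50.6 and 61.2 CPM, and its partner HLA-DMA at 82.4 CPM and then 84.8, 103 and 123 CPM. HLA-DOA was at 76.1 CPM untreated and at 87.0, 109 and 141 CPM. CD74 was at 3285 CPM and then at 3596, 4344 and 5236 CPM. CIITA broke the order at the lowest dose, with 369 CPM untreated, 349 CPM at 50 nM, and 493 and 609 CPM above that.

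Against the untreated HH library of the same set, 250 nM AZA gave 1.41 (HLA-DRB1) to 1.86 (HLA-DMB) times the CPM, with a median of 1.52 over the 10 members and of 1.001 over all genes of mean 1 CPM or more. Levels were ordered upward over untreated and the 3 doses for 9 of 10 members, where 15.7% of 12507 genes of mean 1 CPM or more had that order. At 250 nM, 9 of 10 members were also above the decitabine-set untreated HH library, the exception being HLA-DRA (810 against 861 CPM). At 125 nM 3 of 10 were (HLA-DRB1, HLA-DMB and CIITA), and at 50 nM none was. How many of all genes lay above that library at these doses was not counted.

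**Figure D2:**
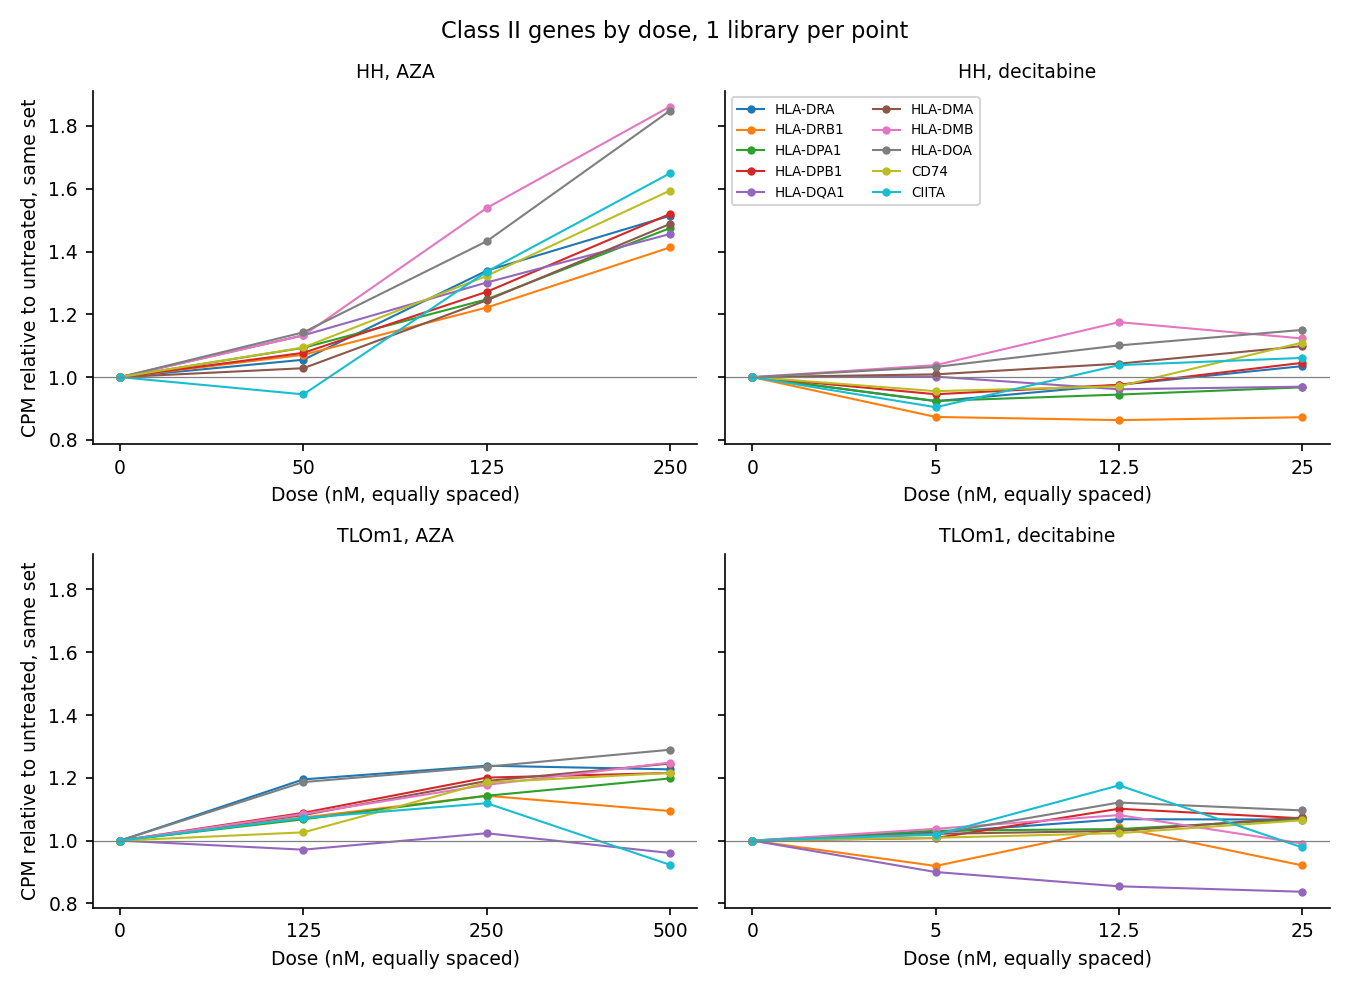
CPM of each class II gene divided by that of the untreated library of the same line and set (vertical axis), by dose in nM (equally spaced), 1 library per point, in HH (top) and TLOm1 (bottom) under AZA (left) and decitabine (right). In HH under AZA the 10 genes end between 1.41 and 1.86 at 250 nM, while under decitabine they end between 0.872 and 1.15 at 25 nM.

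The slope on log2 dose within the treated HH libraries uses no untreated library. It was above 0 and called for 10 of 10 members, where 7.57% of 17090 genes were called with a slope above 0. This test of single lines was added after the dose series had been seen, and its spread came from 18 treated libraries in 1 model. CIITA had the steepest slope, 0.35 log2 units per doubling of dose (SE 0.05, adjusted p = 0.000227 by edgeR), followed by HLA-DMB (0.31, SE 0.06) and HLA-DOA (0.30, SE 0.04, adjusted p = 2.13e-05). The slope starts at 50 nM, where CIITA lay below untreated (349 against 369 CPM). At 250 nM CIITA was 1.65 times untreated, below HLA-DMB (1.86) and HLA-DOA (1.85). CD74 (0.23, SE 0.04), HLA-DMA (0.23, SE 0.04), HLA-DRA (0.23, SE 0.04) and HLA-DPB1 (0.21, SE 0.04) lay close to each other. HLA-DPA1 (0.18), HLA-DRB1 (0.17) and HLA-DQA1 (0.16) were the least steep, with an SE of 0.04 each. Without the 50 nM library no member was called, and without the 250 nM library HLA-DRA and CIITA were.

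The test of the 3 AZA libraries of HH together against its single untreated library called 0 of 10 members by edgeR (5 with an unadjusted p under 0.05), and 0% of 17841 genes were called in it. Its log2 changes were above 0 for 10 of 10 members, from 0.30 (HLA-DRB1) to 0.59 (HLA-DMB, SE 0.24, adjusted p = 0.36), with a median of 0.37 against 0.02 over all genes tested. DESeq2 and limma voom also called 0 members. The highest dose alone against untreated called HLA-DOA.

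In TLOm1 the AZA series was shallower. HLA-DRA was at 1703 CPM untreated and at 2035, 2109.5 and 2089.7 CPM at 125, 250 and 500 nM, and HLA-DOA at 189 CPM and then 225, 234 and 244 CPM. CD74 was at 7636 CPM and then 7837, 9051 and 9281 CPM. HLA-DMA went from 133 CPM to 144, 158 and 165 CPM. For these the untreated library was again the lowest of the 4.

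The DQ alpha chain and CIITA did not share that pattern in TLOm1. HLA-DQA1 was at 922 CPM untreated and at 896, 944 and 886 CPM, and CIITA at 709.7 CPM and then 761, 794 and 655 CPM, so the highest dose lay below untreated for both. Levels were ordered upward over the 4 libraries for 6 of 10 members (HLA-DPA1, HLA-DPB1, HLA-DMA, HLA-DMB, HLA-DOA and CD74), against 16% of 12802 genes. At 500 nM the ratio to untreated ran from 0.923 (CIITA) to 1.29 (HLA-DOA), with a median of 1.22 over the members and 0.981 over all genes.

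No member was called in TLOm1, either for treated against untreated (0 with an unadjusted p under 0.05, and 0.998% of all genes called) or for the slope by edgeR (1 with an unadjusted p under 0.05, and 23.2% of all genes called in either direction). The slope of CD74 was 0.10 (SE 0.04, adjusted p = 0.11), and it was called under each of RLE normalization, library totals, no filter, DESeq2 and limma voom. The slope of CIITA was -0.13 (SE 0.06, adjusted p = 0.15).

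At the doses that HH and TLOm1 shared, the ratios to untreated were 1.22 (HLA-DRB1) to 1.54 (HLA-DMB) in HH and 0.971 (HLA-DQA1) to 1.20 (HLA-DRA) in TLOm1 at 125 nM. At 250 nM they were 1.41 to 1.86 in HH and 1.02 (HLA-DQA1) to 1.24 (HLA-DRA) in TLOm1. The test that the 3 lines changed alike under AZA called 0 of 10 members by edgeR (1 with an unadjusted p under 0.05; DESeq2 and limma voom 0), where 0.146% of all genes were called. The slopes themselves differed between HH and TLOm1, over dose ranges that overlap only in part, for 4 of 10 members, all steeper in HH, where 4.84% of all genes were called steeper in HH. These were CIITA (difference 0.48, SE 0.08, adjusted p = 0.00124), HLA-DOA (0.26, SE 0.07), HLA-DRA (0.23, SE 0.06) and HLA-DQA1 (0.19, SE 0.06, adjusted p = 0.046). Without the 50 nM library of HH or the 500 nM library of TLOm1 none of the 10 was called, and without the 250 nM library of HH or the 125 nM library of TLOm1 CIITA alone was.

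**Figure D3:**
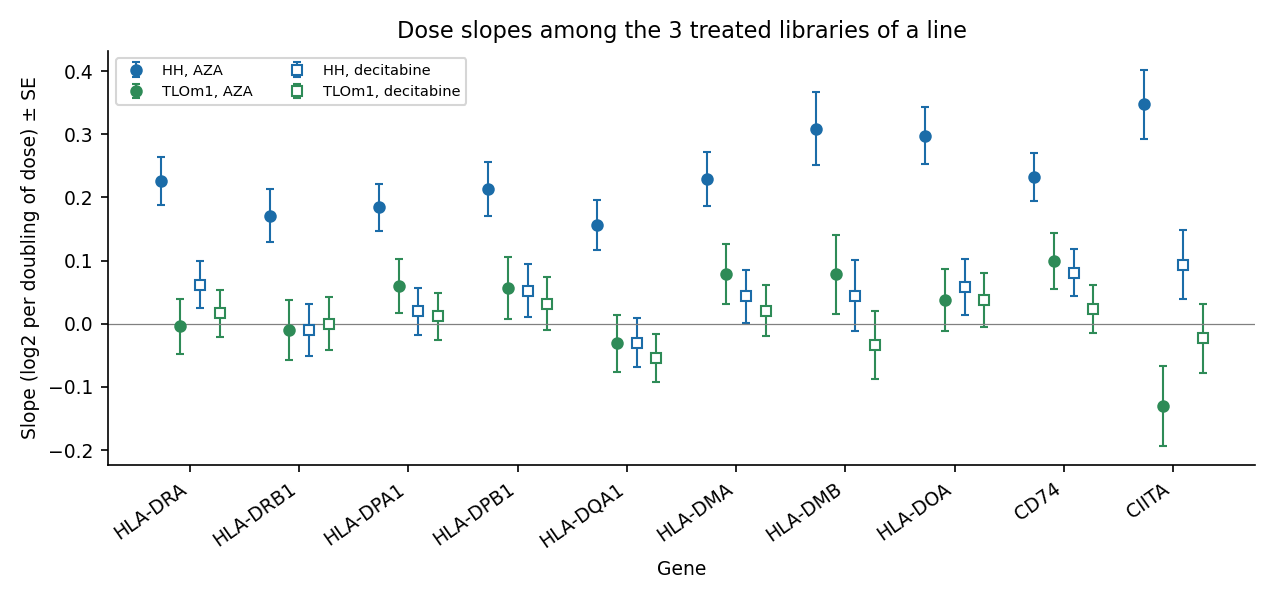
Slope of each class II gene on log2 dose (log2 units per doubling ± SE, SE taken from the quasi-likelihood F statistic) in HH (blue) and TLOm1 (green) under AZA (filled circles) and decitabine (open squares), each from 3 treated libraries with the spread of 18. The HH slopes under AZA lie between 0.16 and 0.35, and the other 3 series between -0.13 and 0.10.

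Over the 3 lines together, AZA-treated against untreated called 0 of 10 members by edgeR, although 7 had an unadjusted p under 0.05, and 1.17% of 16107 genes were called. The log2 change was above 0 for 10 of 10, from 0.15 (HLA-DQA1) to 0.45 (HLA-DMB, SE 0.20, adjusted p = 0.22), with a median of 0.26 against 0.01 over all genes tested. DESeq2 and limma voom called 0 members, and a slope on dose rank with the untreated libraries included called 7. The slope on log2 dose among the 9 AZA libraries called 4 members as rising, against 8.04% of 16450 genes: CD74 (0.17 per doubling, SE 0.03, adjusted p = 0.011), HLA-DOA (0.17, SE 0.05), HLA-DMA (0.16, SE 0.04) and HLA-DPA1 (0.13, SE 0.03). With HH left out 0 of the 10 were called, and the count without any single library ran from 0 (50 or 250 nM of HH) to 8 (500 nM of TLOm1).

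Decitabine, at doses of its own that are not matched to those of AZA, left the members between 0.837 and 1.15 times their untreated libraries at 25 nM in HH and TLOm1. In HH, HLA-DRA was at 861 CPM untreated and at 795, 840 and 891 CPM at 5, 12.5 and 25 nM, CD74 at 4377 CPM and then 4181, 4249 and 4858 CPM, and CIITA at 434 CPM and then 392.2, 450.3 and 460.3 CPM. HLA-DRB1 was below untreated at each dose, with 382 CPM and then 334, 330.0 and 334 CPM. HLA-DOA was above it at each dose, with 109.9 CPM and then 113, 121 and 126 CPM. The 25 nM libraries stood at 0.872 to 1.15 times untreated, a narrower span than 1.41 to 1.86 at the highest AZA dose. That span was not tested against the one under AZA. Over untreated and the 3 decitabine doses, 2 of 10 members (HLA-DMA and HLA-DOA) were ordered upward in HH, against 14.5% of genes of mean 1 CPM or more. Over the 3 doses alone 7 of 10 were, against 25.5% of those genes.

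In TLOm1, decitabine gave 1918 CPM untreated and 1968, 2048 and 2046 CPM for HLA-DRA. CD74 was at 8540 CPM and then 8618, 8744 and 9094 CPM. Ordered upward over untreated and the 3 doses were 3 of 10 members (HLA-DPA1, HLA-DMA and CD74), against 8.46% of genes of mean 1 CPM or more. HLA-DQA1 was the 1 member ordered downward, against 7.51% of those genes. It was at 977 CPM untreated and 879, 835 and 818 CPM, and its partner HLA-DQB1 was at 326, 299, 297 and 294 CPM in the same libraries. In HH, HLA-DQB1 was ordered downward as well, at 343, 295, 279 and 264 CPM.

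By edgeR, decitabine-treated against untreated over the 3 lines called 0 of 10 members, with 0 at an unadjusted p under 0.05, where 0% of 15892 genes were called. The log2 changes ran from -0.14 (HLA-DRB1 and HLA-DQA1) to 0.12 (HLA-DMA, SE 0.10), and DESeq2 and limma voom called 0 members too. The slope on log2 dose called 0 of 10 (0 at an unadjusted p under 0.05), against 3.59% of all genes. In single lines the treated libraries called 0 of 10 in HH (0% of all genes) and in TLOm1 (0% of all genes), with 0 at an unadjusted p under 0.05 in each. The slopes called 0 of 10 in HH (1 at an unadjusted p under 0.05, and 5.11% of all genes) and in TLOm1 (0, and 2.11%). The test that the lines changed alike called 0 of 10 (0 at an unadjusted p under 0.05), against 0.00561% of all genes.

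PF382 held reads of class II genes only in small numbers, and these differed between the sets. In the AZA set CD74 had 65 reads untreated and 72, 66 and 82 reads at 125, 250 and 500 nM, and HLA-DRA had 13 and then 21, 12 and 13 reads. In the decitabine set CD74 had 3 reads untreated and 7, 9 and 13 reads, and HLA-DRA 0, 0, 0 and 1. Over the 4 AZA-set libraries, CD74 in PF382 was 0.0348% of its CPM in TLOm1 of that set, HLA-DRA 0.0307%, HLA-DRB1 0.0332% and HLA-DQA1 0.0226%. In the decitabine set the share was 0.00594% for CD74 and 0.000812% for HLA-DRA. CIITA lay at 0.0240% in the AZA set, while HLA-DPB1 (0.0533%), HLA-DPA1 (0.0920%) and HLA-DMB (0.219%) lay higher. Whether reads of another line are among these was not tested.

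**Figure D4:**
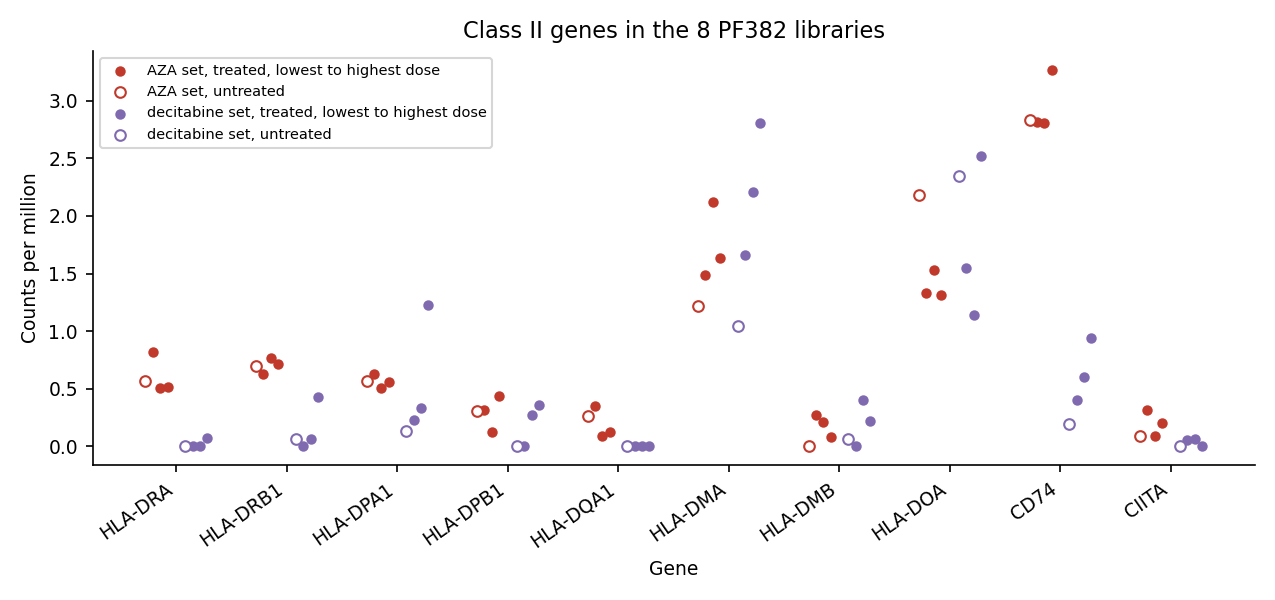
CPM (linear axis) of the class II genes in the 8 PF382 libraries, AZA set in red and decitabine set in purple, open circles untreated and filled circles treated from the lowest to the highest dose. CD74 lies at 2.80 to 3.27 CPM in the AZA set and at 0.195 to 0.936 CPM in the decitabine set, while HLA-DMA and HLA-DOA lie at 1.04 CPM or more in both.

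HLA-DMA and HLA-DOA were the members above 1 CPM in each of the 8 PF382 libraries. For HLA-DMA the AZA set gave 1.22 CPM untreated and 1.49, 2.12 and 1.64 CPM with AZA, and the decitabine set gave 1.04 CPM untreated and 1.66, 2.21 and 2.81 CPM with decitabine. HLA-DOA was at 2.18 CPM and then 1.33, 1.53 and 1.32 CPM, and at 2.35 CPM and then 1.55, 1.14 and 2.52 CPM. HLA-DMA was thus above untreated in 6 of 6 treated libraries, and HLA-DOA below it in 5 of 6. The treated libraries of a set share a single untreated library, so these comparisons are not independent. Of genes of mean 1 CPM or more in PF382, 41.9% had all 3 AZA doses above untreated, and 40.3% all 3 decitabine doses. All 3 AZA doses lay below untreated, as for HLA-DOA, for 26.2%. HLA-DMA stood at 1.08% of its TLOm1 level in the AZA set and HLA-DOA at 0.708%.

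No member was called in PF382 for treated against untreated by edgeR, under AZA (1 with an unadjusted p under 0.05, and 0.83% of all genes called) or decitabine (3 with an unadjusted p under 0.05, and 0.258% of all genes called). The log2 change of HLA-DMA was 0.47 (SE 0.32) with AZA and 1.03 (SE 0.38, adjusted p = 0.246) with decitabine. The slope over the decitabine doses called HLA-DPA1 (5 nM 4 reads, 12.5 nM 5 reads, 25 nM 17 reads, adjusted p = 0.00723) and HLA-DRB1 (0, 1 and 6 reads), which is 2 of 10 against 10.7% of all genes called with a slope above 0. Neither was called without the 5 nM or without the 25 nM library. Under AZA the slope called 0 of 10 (1 at an unadjusted p under 0.05), against 9.71% of all genes.

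Of 9 further class II chains and pseudogenes, 7 had a row in the files. HLA-DRB5, a second DR beta chain, was at 245 CPM in untreated HH of the AZA set and at 282, 340.3 and 401 CPM with AZA, and its slope was called (0.22 per doubling, SE 0.04). In TLOm1 it was at 635.5 CPM and then 762, 871 and 880.2 CPM. HLA-DQB1 was at 305 CPM and then 307, 333 and 376 CPM in HH (slope 0.12, SE 0.04, called), the least steep of the called chains there. HLA-DOB, the partner of HLA-DOA, was at 4.24 CPM and then 4.20, 5.60 and 6.49 CPM in HH (slope 0.27, SE 0.11, adjusted p = 0.11) and, unlike most chains, had 23 to 50 reads in PF382 libraries of the AZA set and 15 to 30 in those of the decitabine set.

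The copies and pseudogenes were low. HLA-DQA2, a near copy of HLA-DQA1, was at 38.0 to 59.3 CPM in TLOm1 and at most 2.97 CPM in HH, where its slope under AZA was called below 0 on 0.0615 to 0.680 CPM. HLA-DQB2 was at most 1.72 CPM in any library. The pseudogene HLA-DRB6 was at most 0.123 CPM in HH and TLOm1 libraries of the AZA set but at 0.313 to 0.944 CPM in HH and 4.95 to 6.98 CPM in TLOm1 in the decitabine set, and it was called between the untreated sets (log2 difference -4.71, SE 0.90, adjusted p = 0.018). HLA-DPB2 was at 1.11 to 1.77 CPM in HH libraries of the AZA set and at 2.61 to 2.98 CPM in those of the decitabine set (adjusted p = 0.056 between the untreated sets). HLA-DRB1, HLA-DRB5 and HLA-DRB6, HLA-DQA1 and HLA-DQA2, HLA-DQB1 and HLA-DQB2, and HLA-DPB1 and HLA-DPB2 are near copies, so how the reads were divided within each group is uncertain.

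The lists that follow are counted for the slope on AZA dose in single lines, which was added after seeing the data. In HH it called 1 of 7 class II factors (higher), 0 of 9 interferon gamma genes, 1 of 4 repressors (lower), 2 of 7 endosomal genes (lower) and 0 of 2 receptors. In TLOm1 it called 2 factors (1 higher, 1 lower), 3 interferon gamma genes (2 higher, 1 lower), 1 repressor (higher), 5 endosomal genes (3 higher, 2 lower) and 2 receptors (lower). The shares of all genes called were 7.57% higher and 6.08% lower in HH, and 23.2% in either direction in TLOm1.

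Of the 7 factors that hold CIITA at class II promoters, 0 were called in the AZA or decitabine tests of treated against untreated. RFX5, the DNA-binding subunit of RFX, was at 279 CPM in untreated HH and at 283, 332 and 391 CPM with AZA, and its slope was called (0.20, SE 0.04). It was at 415 CPM in untreated TLOm1 and at 449, 514 and 553 CPM with AZA, where its slope was 0.13 (SE 0.04), also called. RFXAP and NFYA stood the other way between lines, with 34.7 and 50.7 CPM for RFXAP in untreated PF382 against 19.3 and 22.02 CPM in HH, and 110 and 128 CPM for NFYA against 40.3 and 50.7 CPM. NFYB was at 75.5 and 99.6 CPM in PF382 and 25.4 and 35.4 CPM in HH. RFX5 followed the class II order, with 124 and 119 CPM in untreated PF382 against 279 and 322 CPM in HH and 415 and 496 CPM in TLOm1. CIITA was at 0 to 8 reads per PF382 library.

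Of 10 genes listed for interferon gamma signaling to CIITA, 9 were tested and 8 were called between the untreated lines, near the 82.9% of all genes called there. JAK2, a kinase at the interferon gamma receptor, was at 27.0 and 34.6 CPM in HH, 6.68 and 6.52 CPM in PF382 and 10.5 and 12.8 CPM in TLOm1. IRF1, a factor at a CIITA promoter, was highest in PF382 (73.3 and 64.0 CPM) and lowest in TLOm1 (12.9 and 14.1 CPM), opposite to the class II order. The receptor chain IFNGR1 was at 35.7 and 46.8 CPM in HH, 18.4 and 21.7 CPM in PF382 and 15.04 and 21.3 CPM in TLOm1, and IFNGR2 at 53.5 and 56.96, 18.02 and 14.8, and 69.6 and 56.1 CPM in that order of lines. In the AZA slope over the 3 lines IRF1 (0.18, SE 0.04) and JAK1 (0.09, SE 0.03) were called as rising. JAK1 was singled out after its value was seen.

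PRDM1, which represses CIITA in plasma cells, was at 212 and 248.8 CPM in untreated TLOm1, the line with the most class II RNA, against 5.76 and 10.3 CPM in HH and 1.004 and 0.912 CPM in PF382. In the AZA set of HH, PRDM1 was at 5.76 CPM untreated and at 10.3, 6.43 and 5.12 CPM over the rising doses. Its slope among the treated libraries was called (-0.44, SE 0.08), but the lowest dose stood above untreated and the highest near it. The log2 change of PRDM1 in HH for AZA-treated against untreated was 0.29. EZH2 was at 392.2 and 391 CPM in HH, 239.98 and 243 CPM in PF382 and 429 and 504 CPM in TLOm1. The ubiquitin ligase MARCH8 was at 25.4 and 25.6 CPM in HH, 15.5 and 22.02 CPM in PF382 and 12.3 and 13.6 CPM in TLOm1, and MARCH1 was called between the untreated sets (log2 difference -0.79, SE 0.18). None of these 4 was called for treated against untreated, where 1.17% of all genes or fewer were called.

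Among the endosomal proteases and their partners, 7 of 8 with a row were tested. CTSS, the cathepsin that trims the invariant chain, was at 10.8 and 16.9 CPM in untreated HH, 52.2 and 66.0 CPM in TLOm1 and 0.305 and 0.326 CPM in PF382, the same order as CD74. IFI30, a thiol reductase, was at 35.7 and 33.0 CPM in HH, 5.72 and 2.67 CPM in PF382 and 63.6 and 55.7 CPM in TLOm1. Under AZA in HH, where the member slopes were above 0, CTSB fell, at 14.7 CPM and then 13.9, 7.97 and 5.04 CPM (slope -0.63, SE 0.07). The other gene of the list called in that slope, LGMN (-0.57, SE 0.11), fell too. In TLOm1 CTSB rose, at 71.5 CPM and then 107, 173 and 228 CPM (slope 0.52, SE 0.05). Both CTSB slopes were called. SPPL2A, which cuts the membrane stub of CD74, was at 19.04 and 28.5 CPM in HH, 25.7 and 32.8 CPM in PF382 and 53.2 and 82.6 CPM in TLOm1. CTSH, another cathepsin, was singled out as the 1 gene of the list called for AZA against untreated in a single line. That line was TLOm1, where 0.998% of all genes were called, and CTSH was at 3.74 CPM and then 17.4, 36.7 and 30.1 CPM. Of the receptors of class II, CD4 was at 563 and 520.3 CPM in untreated HH and 959 and 838 CPM in TLOm1, and LAG3 at 75.0 and 82.5 CPM and at 28.5 and 21.01 CPM.

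The genes whose log2 CPM went most like the members over the 24 libraries were mostly set by the lines, since 8 libraries share a line. Most like CIITA were MYOF (Pearson's r = 0.998), MTAP (0.997), HLA-DRB5 (0.997), CD70 (0.996) and ALPK2 (0.996), of 12960 genes ranked. Most like CD74 were HLA-DRA (0.999), MYOF (0.996), HLA-DPB1 (0.996), HOXB9 (0.996) and CIITA (0.996). With the mean of each line within a set subtracted, the genes most like CD74 were AHNAK (0.941), CKB (0.923), ERMP1 (0.913), SMPD1 (0.911) and C3orf54 (0.910). HLA-DPA1 (0.906) was sixth and HLA-DMA (0.889) fourteenth, while HLA-DQA1 (0.0688) and HLA-DOA (0.148) were far down. For CIITA the centred list was led by 1/2-SBSRNA4 (0.754), LSMD1 (0.735), IL12RB2 (0.676), NIT2 (0.676) and HLA-DOB (0.670), and CIITA with CD74 gave 0.222. Libraries of PF382 with few reads of these genes weigh on the centred values.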

How the data were processed

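RNA-seq was measured in 24 libraries of 3 human T-cell lines, 1 library per condition. Per the labels, RNA was extracted with Qiagen kits and libraries were made with the TruSeq Stranded mRNA kit, RNA being named both polyA and rRNA-depleted. The authors deposited whole-number read counts for 25559 genes per library, not normalized. STAR, DESeq2, limma and GRCh37.p2 are named in the submitters' processing notes without versions or roles, and whether counting used strand is not given in the sources used here.

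Counts were tested with edgeR 4.0.16 (quasi-likelihood, robust, TMM, filterByExpr, Benjamini-Hochberg threshold 0.05). Models were the 12 libraries of a drug set with cell line as a block, slopes on log2 dose over 9 treated libraries (and, added after seeing the data, per line over 18), 24 libraries in 1 model for effects of single lines, and 6 untreated libraries. SE was the log2 value divided by the root of the F statistic. CPM used library totals as deposited. DESeq2 1.42.0, limma voom 3.58.1, RLE, library totals, no filter and left-out libraries were alternatives. Scripts were tested on simulated data. Intervals are not given, and counting error is the least error of any value. The members, lists and tests were chosen with earlier results of these data known. Named were the 10 members, the listed class II chains with a row, from each other list up to 4 called genes with the smallest adjusted p, and the 5 genes of most like pattern. No per-sample column was left unused.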

Additional observations from a re-analysis of the deposited data

Results flagged for a closer look

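The slope on log2 AZA dose differed between HH and TLOm1 for 4 of the 10 class II genes by a test of the difference itself (edgeR, 18 treated libraries, doses of 50 to 250 nM in HH and 125 to 500 nM in TLOm1). The difference, HH minus TLOm1 in log2 units per doubling, was 0.48 for CIITA (slopes 0.35 and -0.13), 0.26 for HLA-DOA (0.30 and 0.04), 0.23 for HLA-DRA (0.23 and -0.004) and 0.19 for HLA-DQA1 (0.16 and -0.03). Over the other 6 members it ran from 0.12 to 0.23 and was not called. The lines were also given different dose ranges, and line and range cannot be told apart in these slopes.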

How the results depend on the processing

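Each condition had 1 library, and treated and untreated libraries were matched through cell line, a block in the main models. A further fit set the 3 summed doses of a line beside its untreated library. In numbers of the 10 class II genes called, 0 became 7 for AZA-treated against untreated with a slope on dose rank 0 to 3, and 4 became 2 for the AZA dose slope with dose rank 1 to 3 and 0 with HH left out, while leaving out 1 library gave 0 to 8. For AZA in HH the highest dose alone gave 1, and left-out libraries 0 to 1. Decitabine in PF382 gave 1 at the highest dose alone, and the untreated sets 1 with PF382 left out. TLOm1 against HH gave 3 with DESeq2 in place of 8, and 4 to 9 with 1 library left out. Of the slopes of single lines, which were added after seeing the data, AZA in HH gave 0 to 10 with 1 library left out, and AZA in TLOm1 gave 1 in place of 0 with RLE, library totals, DESeq2 and limma voom and 2 with no filter. Decitabine in PF382 gave 1 in place of 2 with limma voom and 0 to 3 with 1 library left out, and HH minus TLOm1 gave 0 to 4. Signs were followed for the 10 members in AZA-treated against untreated over the 3 lines. They were also followed for members called in TLOm1 against HH and in 3 AZA slopes: over the lines, in HH, and HH minus TLOm1. Signs of the other named values, those under decitabine among them, were not followed. Of those followed, 1 turned: HLA-DQA1 for AZA-treated against untreated was -0.0349 with HH left out against 0.15. The cause of these changes was not tested, except that fewer libraries were fitted where 1 was left out. With 1 library per condition, effects in single lines rest on 1 untreated library, and genes of few reads in PF382 are limited by depth.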
